A study of Mus musculus with 24 samples.

Results

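The expression profiles of MOZ-TIF2 granulocyte monocyte progenitors (GMP) were set directly against those of NUP98-HOXA9 GMP. Members were chosen by sample title and were the 4 arrays titled MT2-GMP and the 3 titled NHA9-GMP, 7 of the 24 arrays of the series. All 7 came from C57BL/6 mouse GMP, the bone marrow progenitors of neutrophils and monocytes, and GFP-positive cells were lysed 36 hours after spinoculation. MT2 GMP carried the fusion oncogene MOZ-TIF2 and NHA9 GMP carried NUP98-HOXA9. The same fit also held 2 more groups, GMP carrying AML1-ETO (AE, 4 arrays) and GMP carrying the empty GFP vector (3 arrays). The fusions were forced into otherwise normal cells, and the vector's promoter is not named in the sources used here. Nothing in the labels tells whether replicates came from separate mice, cultures or infections. The p-values therefore cover the spread among these arrays, which may be technical only. The series compared each oncogene with the empty vector, and the direct contrast asks where the early profiles of MT2 and NHA9 GMP differ.

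MOZ is a histone acetyltransferase and TIF2 a coactivator of nuclear receptors, and their fusion is found in acute myeloid leukemia. NUP98-HOXA9 joins the repeat domain of a nuclear pore protein to the DNA-binding homeodomain of HOXA9, also in acute myeloid leukemia. Both fusions are known to confer serial replating on mouse progenitors, and HOX genes with their MEIS and PBX cofactors are known to be expressed in stem cells and to fall silent as blood cells mature. GMP in culture normally go on to make granules in waves, first the primary granules with myeloperoxidase and elastase and later the secondary granules of the maturing neutrophil.

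Values are log2 expression estimates, and a gene was tested where its expression exceeded 60 in linear units, or 5.91 in log2 (called the background level below), on at least 2 arrays of MT2 or of NHA9. On the 7 arrays 46.6% to 47.3% of probe sets lay over this level. All 11 GMP markers looked up, among them Mpo, Elane, Cebpa and Csf1r, lay over it on 7 of 7 arrays, while the stem cell markers Tek and Slamf1 did so on 0 and Procr on 1. File names carry a tag that covers MT2 1 to 3 and NHA9 1 and 2 (tag A). MT2 4 has another tag and NHA9 3 has none. On the second principal component of the 14 transduced arrays (23.8% of the variance) MT2 4 lay at 23.66 and NHA9 3 at 18.05, against at most 7.12 for the tag A arrays. The log2 difference of the 3′ and 5′ Gapdh control probe sets was 2.67 on MT2 4 and 2.58 on NHA9 3. It was 3.21 to 4.24 on MT2 1 to 3 and NHA9 1 and 2. For actin it was 3.04 and 3.11 on NHA9 1 and 2, 2.43 on NHA9 3 and 2.43 to 2.80 on the MT2 arrays. The part of these differences in the results was not tested. NHA9 1 stood apart as well: Xist, the RNA of the inactive X chromosome, was at 11.71 there and between 5.37 and 5.97 on the other 6 arrays, and the Y-linked Eif2s3y was at 8.05 against 9.11 to 9.55. The count of calls, some lists and some genes are therefore also given without NHA9 1 or within tag A. For most single genes these 2 alternatives are not printed.

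MT2 and NHA9 GMP differed in many genes in limma, with a count that depended on the arrays and the test. Of 6986 genes tested, 561 (8.03%) passed an adjusted p of 0.05 in limma, 236 higher (3.38%) and 325 lower (4.65%) in MT2. The larger differences were mostly decreases: 47 of these genes were higher and 105 lower in MT2 by at least 1 on the log2 scale, which is 2-fold. On 546 of the 561 (7.82% of all tested) the MT2 and NHA9 arrays did not overlap, and 1698 genes (24.3%) did not overlap in all. The median difference over all genes was 0.0075. Over probe sets, 840 of 11171 (7.52%) passed, 393 higher (3.52%) and 447 lower (4%), a share of 46.8% higher. Without NHA9 1 the count was 239, with 81 higher and 158 lower. It was 329 without MT2 1, 492 without MT2 4, 432 without NHA9 2 and 1377 without AE 1, and within tag A it was 2037, with 1394 higher (68.4%). The methods' t-test, which takes the spread of each probe set from the 7 arrays alone, called 3 after Benjamini-Hochberg adjustment. MT2 and NHA9 GMP also share their GFP controls. Against those, 279 genes were higher (4.01%) and 117 lower (1.68%) of 6957 in MT2, and 11 were higher (0.159%) and 0 lower (0%) of 6919 in NHA9. At an unadjusted p under 0.05 limma gave 560 higher and 133 lower in NHA9 against GFP. For MT2 minus NHA9 it gave 843 higher and 874 lower of 6986 genes at that level. Below, rose or higher and fell or lower are for MT2 against NHA9 GMP unless GFP is named. All gene lists below were drawn up with earlier results of these data known, so their shares are not independent evidence of a direction. In bulk RNA, fewer cells of a type and less RNA per cell cannot be told apart in any result below.

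**Figure D1:**
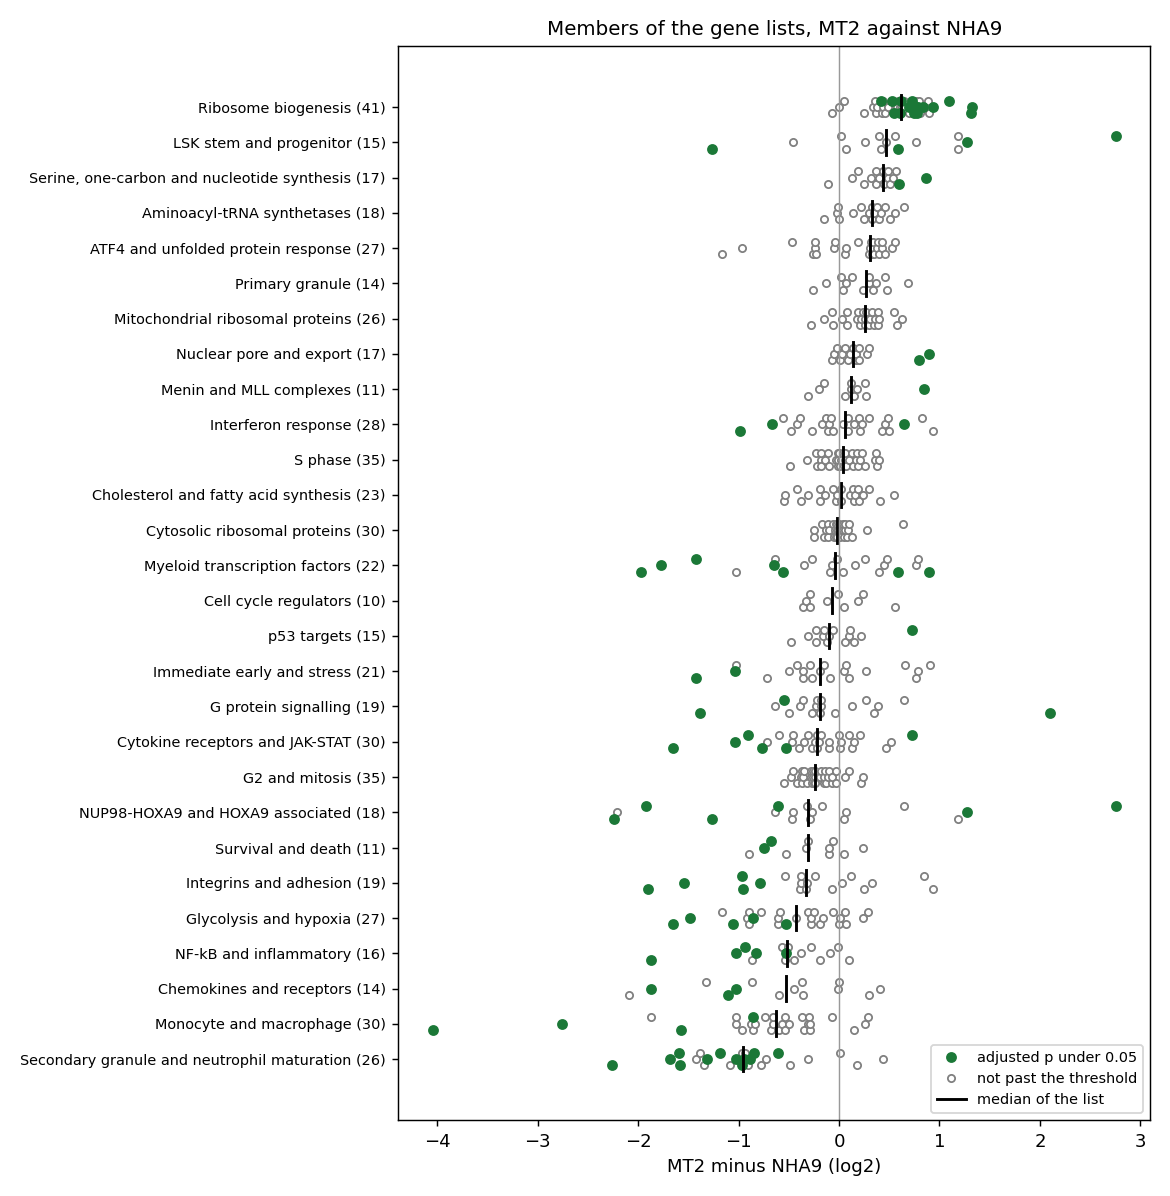
Difference of MT2 minus NHA9 (log2, horizontal axis) for each tested member of the gene lists with at least 10 tested members, with the number tested in brackets. Filled points passed an adjusted p of 0.05, open points did not, and a black bar marks the list's median. Ribosome biogenesis lies highest, with a median of 0.62, and secondary granule and neutrophil maturation lowest, with a median of −0.95.

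Genes of stem and early progenitor cells included Sox4, the largest increase in MT2 among the genes named by rule. The 15 largest increases and 15 largest decreases were named only where the groups did not overlap. For those genes the separation of the arrays follows from the rule and is no added support. Of 30 stem and progenitor genes on the array 15 were tested, and 12 were never over the background level on the 7 arrays. Of the 15, 3 were higher (20%, against 3.38% of all genes: Sox4, Lmo2 and Etv6) and 1 lower (6.67%, against 4.65%: Mycn). The list median was 0.47, with 13 values above 0. Sox4, a high mobility group transcription factor of progenitors, read 8.89, 8.12, 8.13 and 9.01 in MT2 GMP and 5.06, 5.75 and 6.53 in NHA9 GMP. Every MT2 array lay over every NHA9 array, 2 of the NHA9 arrays were under the background level, and the difference was 2.76 (SE 0.35, adjusted p = 9.70e-04), at least 6.2-fold. Without NHA9 1 the difference was 2.40 and within tag A 2.98. All 3 tested probe sets of Sox4 were called higher, while over the mean of all 6, with 3 that were not tested, the difference was 0.93 (adjusted p = 0.00119). Lmo2, an adaptor protein that bridges transcription factors in blood stem cells, was at 11.39, 11.05, 10.90 and 11.37 in MT2 GMP and at 9.74, 9.81 and 10.19 in NHA9 GMP. Lmo2 was 2.41-fold higher in MT2, by 1.27 (SE 0.21, adjusted p = 0.00361). Etv6, an ETS family repressor needed by stem cells, was 0.59 higher with an adjusted p of 0.0415, and this call was lost in 5 of the 7 fits that left out 1 MT2 or NHA9 array.

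Sox4 and Lmo2 differed from the empty vector in MT2 GMP and not detectably in NHA9 GMP. MT2 minus GFP was 3.27 (adjusted p = 6.83e-04) for Sox4 and 1.19 (adjusted p = 0.00924) for Lmo2. NHA9 minus GFP was 0.51 for Sox4, which was not tested because fewer than 2 arrays of NHA9 or of GFP lay over the background level, and −0.08 (adjusted p = 0.925) for Lmo2. Sox4 stood at 9.74 ± 0.15 in sorted LSK cells, the compartment with the blood stem cells (SD, n = 3), at 9.68 ± 0.75 in GMP of MT2 leukemias (SD, n = 3) and at 7.98 ± 0.44 in sorted GMP (SD, n = 4). By its mean, MT2 GMP lay between sorted GMP and LSK cells for Sox4, and NHA9 GMP under both. Tal1, a basic helix-loop-helix factor that works with Lmo2, read 7.26, 7.14, 6.44 and 7.73 in MT2 GMP and 6.12, 5.55 and 6.22 in NHA9 GMP. Its arrays did not overlap, but the difference of 1.18 did not pass (adjusted p = 0.106).

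Rgs18 gave the increase next in size to that of Sox4. It encodes a regulator of G protein signalling that is abundant in megakaryocytes and platelets. Rgs18 was at 9.94, 9.68, 9.52 and 10.27 in MT2 GMP and at 7.77, 7.63 and 7.86 in NHA9 GMP. The lowest MT2 array exceeded the highest NHA9 array by a wide margin, and Rgs18 was 4.28-fold higher, a log2 difference of 2.10 (SE 0.27, adjusted p = 9.85e-04). Of 19 tested G protein signalling genes it was the 1 that rose (5.26%, against 3.38% of all genes), and 2 fell (10.5%, against 4.65%). P2ry14, a receptor for UDP-sugars, and Ptger4, a prostaglandin receptor, were lower. P2ry14 was under the background level on all MT2 arrays and at least 1.29-fold lower there (adjusted p = 0.0151). By mean, P2ry14 was at 8.84 in LSK cells and 6.10 in sorted GMP, and MT2 GMP at 4.90 lay under both, unlike for Sox4. Ptger4 was −0.55 with an adjusted p of 0.0481, and its call was lost whichever of the 7 arrays was left out.

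**Figure D2:**
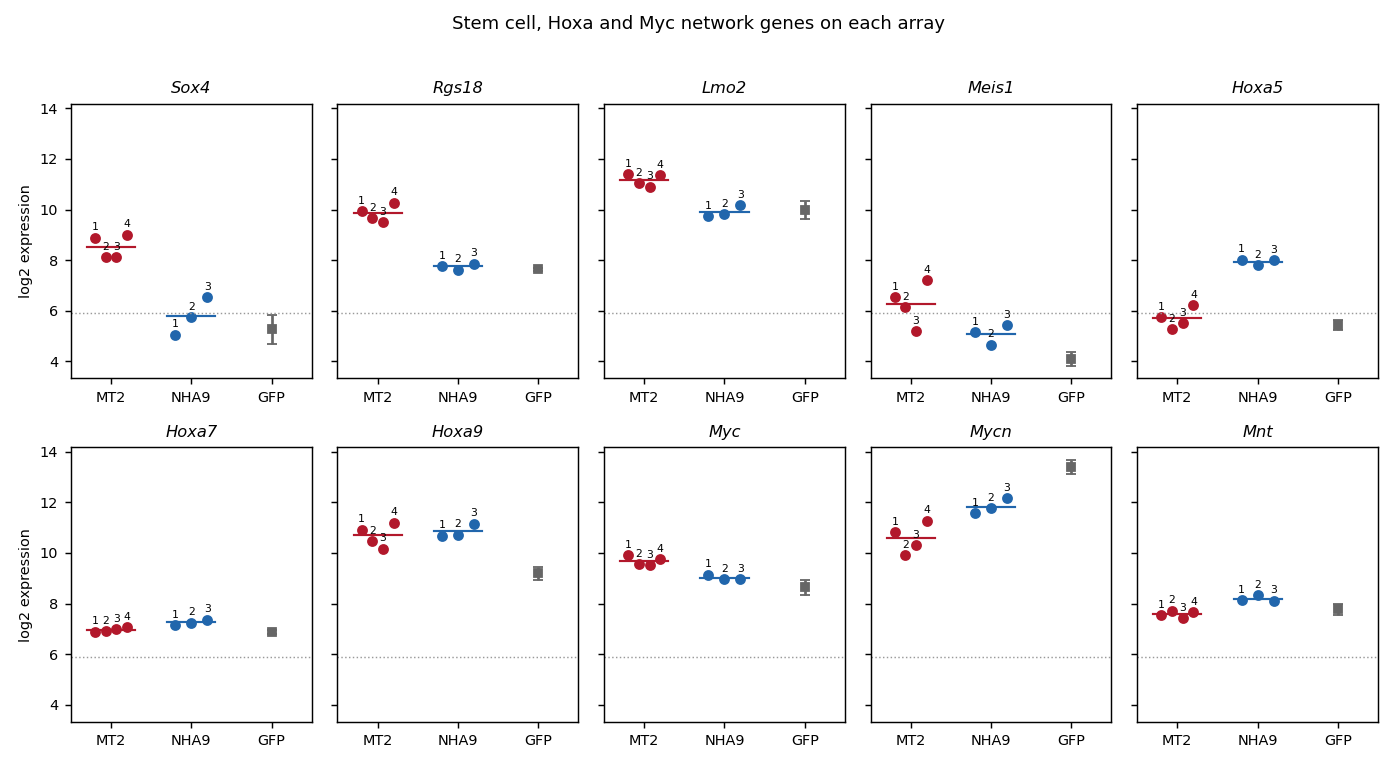
Log2 expression (vertical axis) of 10 stem cell, Hoxa and Myc network genes on each MT2 and NHA9 array (points, numbered by replicate, with a line at the mean) and the mean ± SD of the 3 GFP arrays (square). The dotted line is the background level of 5.91. Sox4, Rgs18 and Lmo2 lie higher on all MT2 arrays, Hoxa5 and Mycn lie higher on all NHA9 arrays, and Hoxa9 overlaps.

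Within the Hoxa cluster a difference was called for Hoxa5, while Hoxa9 overlapped between the groups. Of 21 Hox genes and cofactors on the array, 7 were tested and 1, Hoxa5, was called, as lower (14.3%, against 4.65% of all genes). Hoxa5, a homeobox gene in the middle of the cluster, read 5.75, 5.28, 5.52 and 6.24 in MT2 GMP and 8.03, 7.80 and 7.99 in NHA9 GMP. MT2 GMP was at least 4.08-fold lower, a difference of −2.24 (SE 0.21, adjusted p = 1.93e-04), with only MT2 4 over the background level among the MT2 arrays. MT2 minus GFP was 0.24, untested because fewer than 2 arrays of MT2 or of GFP lay over the background level, and NHA9 minus GFP was 2.48 (adjusted p = 1.12e-04). Hoxa9 itself, whose human homologue is part of NUP98-HOXA9, was at 10.92, 10.47, 10.17 and 11.20 in MT2 GMP and at 10.69, 10.72 and 11.16 in NHA9 GMP. These arrays overlapped, and the difference was −0.17 (SE 0.24, adjusted p = 0.741). Each group lay over GFP in Hoxa9, MT2 by 1.50 (adjusted p = 0.0055) and NHA9 by 1.67 (adjusted p = 0.0194). The signal that vector-derived HOXA9 sequence may add to this probe set was not tested.

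Other members of the Hox group gave smaller differences. Hoxa7 was at 6.89, 6.92, 6.99 and 7.08 in MT2 GMP and at 7.16, 7.25 and 7.37 in NHA9 GMP, apart on every array, yet the difference of −0.29 did not pass (adjusted p = 0.134). Meis1, the cofactor that is known to work with HOXA9 in leukemia, read 6.54, 6.14, 5.21 and 7.21 in MT2 GMP and 5.17, 4.66 and 5.44 in NHA9 GMP. MT2 3 fell within the NHA9 range for Meis1, and its difference was 1.19 (SE 0.35, adjusted p = 0.0507), just short of the threshold. Against GFP, Meis1 was 2.19 (adjusted p = 0.00487) in MT2 GMP, while all NHA9 arrays were under the background level. Hoxb4 (−0.22), Hoxb3 (0.16) and Pbx2 (−0.13) had adjusted p values of 0.464, 0.631 and 0.758. The 14 untested members lay between 2.94 and 6.05 on the 7 arrays: Hoxa2, Hoxa3, Hoxa4, Hoxa10, Hoxa11, Hoxa13, Hoxb2, Hoxb5, Hoxb6, Hoxb7, Hoxb9, Meis2, Pbx3 and Pknox1.

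The genes that make up the fusions showed no called difference. Kat6a, which encodes MOZ, was at 7.65, 7.68, 7.64 and 7.97 in MT2 GMP and at 7.98, 8.04 and 8.18 in NHA9 GMP. All MT2 arrays lay lower, but the difference of −0.33 did not pass (adjusted p = 0.166). Ncoa2, which encodes TIF2, lay under the background level on all 7 arrays, between 3.70 and 4.35. Nup98 was at 6.55, 6.57, 6.71 and 6.42 in MT2 GMP and at 6.27, 6.34 and 6.50 in NHA9 GMP, a difference of 0.19 with an adjusted p of 0.353. For Runx1, which encodes AML1 in the mouse, the difference was −0.09 (adjusted p = 0.883), and Runx1t1, that of ETO, was under the background level throughout. Whether any of these probe sets reads a vector transcript was not tested, so the labels were not checked through the fusions. Among related lists, 0 of 8 acetyltransferases and coactivators were called in limma (1 lower at an unadjusted p under 0.05). Of 17 nuclear pore and export genes, 2 rose (11.8%, against 3.38% of all genes), Nup153 (0.90, adjusted p = 0.00946) and Ranbp2 (0.80, adjusted p = 0.0456), which encode pore proteins of the nuclear basket and the cytoplasmic filaments. Without NHA9 1 neither passed, and Ranbp2 also lost its call without MT2 1, MT2 2, MT2 4 or NHA9 2. Of 11 genes of the menin and MLL complexes, 1 rose (9.09%, against 3.38% of all genes). It was Aff1, an elongation factor partner of MLL, by 0.85 (SE 0.16, adjusted p = 0.00746).

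In the Myc network, Mycn and Mnt fell and Myc lay higher without passing. Mycn, a MYC family member, read 10.81, 9.90, 10.30 and 11.28 in MT2 GMP and 11.58, 11.76 and 12.17 in NHA9 GMP. All MT2 arrays lay under all NHA9 arrays, and the difference was −1.26 (SE 0.28, adjusted p = 0.0149), 2.4-fold lower. GFP GMP stood at 13.41 ± 0.27 (SD, n = 3). MT2 minus GFP was −2.83 (adjusted p = 4.53e-04) and NHA9 minus GFP was −1.57 (adjusted p = 0.0536). Sorted GMP lay at 6.96 ± 0.59 (SD, n = 4) and sorted LSK cells at 6.79 ± 0.37 (SD, n = 3), both under every transduced group. Myc was at 9.92, 9.55, 9.53 and 9.76 in MT2 GMP and at 9.15, 8.97 and 8.96 in NHA9 GMP. Its arrays did not overlap and the difference was 0.67 (SE 0.21, adjusted p = 0.0667). Mnt, a repressor that competes with MYC for MAX, was −0.60 in MT2 with an adjusted p of 0.0215, and the call was lost without MT2 1, NHA9 1 or NHA9 2. Over the mean of all their probe sets, with 2 of 3 for Mycn and 1 of 2 for Mnt not tested, neither Mycn (−0.34, adjusted p = 0.068) nor Mnt (−0.35, adjusted p = 0.0711) passed. Mxd4 (−0.53), Mlxip (−0.18) and Mxi1 (0.01) did not pass. Mlx (0.44) and Mxd3 (−0.28) did not pass on the probe set with the highest mean, but 1 of 2 tested probe sets of Mlx was called higher and 2 of 3 of Mxd3 were called lower. Over the mean of their probe sets Mlx was 0.64 (adjusted p = 0.00765) and Mxd3 −0.52 (adjusted p = 0.00731). Max, Mga, Mycl and Mxd1 were not tested, with all MT2 and NHA9 arrays but MT2 4 for Max under the background level.

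Ribosome biogenesis had the most increases of the 39 lists. These genes process ribosomal RNA and assemble the subunits in the nucleolus, and they are textbook targets of MYC. Of 41 tested members 16 rose in MT2 (39%, against 3.38% of all genes) and 0 fell, 39 of 41 values were above 0 and the list median was 0.62, against 0.0075 over all genes. The called differences ran from 0.42 to 1.33. Tsr1, a maturation factor of the small subunit, read 8.01, 7.52, 7.60 and 8.24 in MT2 GMP and 5.76, 6.34 and 7.46 in NHA9 GMP. NHA9 3 came close to the lowest MT2 array, and the difference was 1.33 (SE 0.36, adjusted p = 0.0361), with 0.94 without NHA9 1 and 1.67 within tag A. Ddx21, a nucleolar RNA helicase, was at 9.08, 8.82, 8.56 and 8.82 in MT2 GMP and at 7.60, 7.75 and 7.84 in NHA9 GMP. Here the groups were well apart, by 1.09 (SE 0.18, adjusted p = 0.00376), or 2.13-fold.

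Further members followed this order. Rrs1, an assembly factor of the large subunit, was at 8.21, 7.79, 7.66 and 8.39 in MT2 GMP and at 6.40, 6.50 and 7.20 in NHA9 GMP, a difference of 1.31 (SE 0.31, adjusted p = 0.0216). Srm, spermidine synthase, was at 11.29, 10.96, 11.07 and 10.90 in MT2 GMP and at 10.15, 10.31 and 9.90 in NHA9 GMP. It is an enzyme of polyamine synthesis that the list holds as a MYC target, and it was 1.91-fold higher (adjusted p = 0.0103). Bop1, a large subunit processing factor, was at 8.64, 8.44, 8.32 and 8.53 in MT2 GMP and at 7.72, 7.70 and 7.66 in NHA9 GMP, with the narrowest NHA9 spread of those named here and a difference of 0.79 (SE 0.14, adjusted p = 0.00525). The other called members were Nolc1, Utp20, Utp4, Gnl3, Heatr1, Rrp12, Wdr43, Nop16, Wdr75, Nip7 and Rrp9. On MT2 1, 12 of the 16 called genes were highest among the MT2 arrays, and on MT2 3, 13 were lowest. Npm1, nucleophosmin (0.05), and Polr1a, the large subunit of RNA polymerase I (0.25), did not pass (adjusted p = 0.915 and 0.385).

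The number of calls in this list moved with single arrays more than its median did. The 16 calls became 3 without MT2 1 or NHA9 1, 9 without MT2 2, 6 without MT2 4, 5 without NHA9 2 and 25 within tag A, while the median stayed between 0.54 and 0.70 in every fit listed, the fit with a replicate block giving 8 calls and 0.54. Ddx21, Srm and Bop1 kept their calls with each array left out, and Tsr1 and Rrs1 lost theirs without MT2 1, MT2 4, NHA9 1 or NHA9 2. Against GFP, Ddx21 was 0.93 (adjusted p = 0.0126) in MT2 GMP and −0.16 (adjusted p = 0.809) in NHA9 GMP. For Srm these values were 1.08 (adjusted p = 0.0098) in MT2 GMP and 0.14 (adjusted p = 0.847) in NHA9 GMP.

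**Figure D3:**
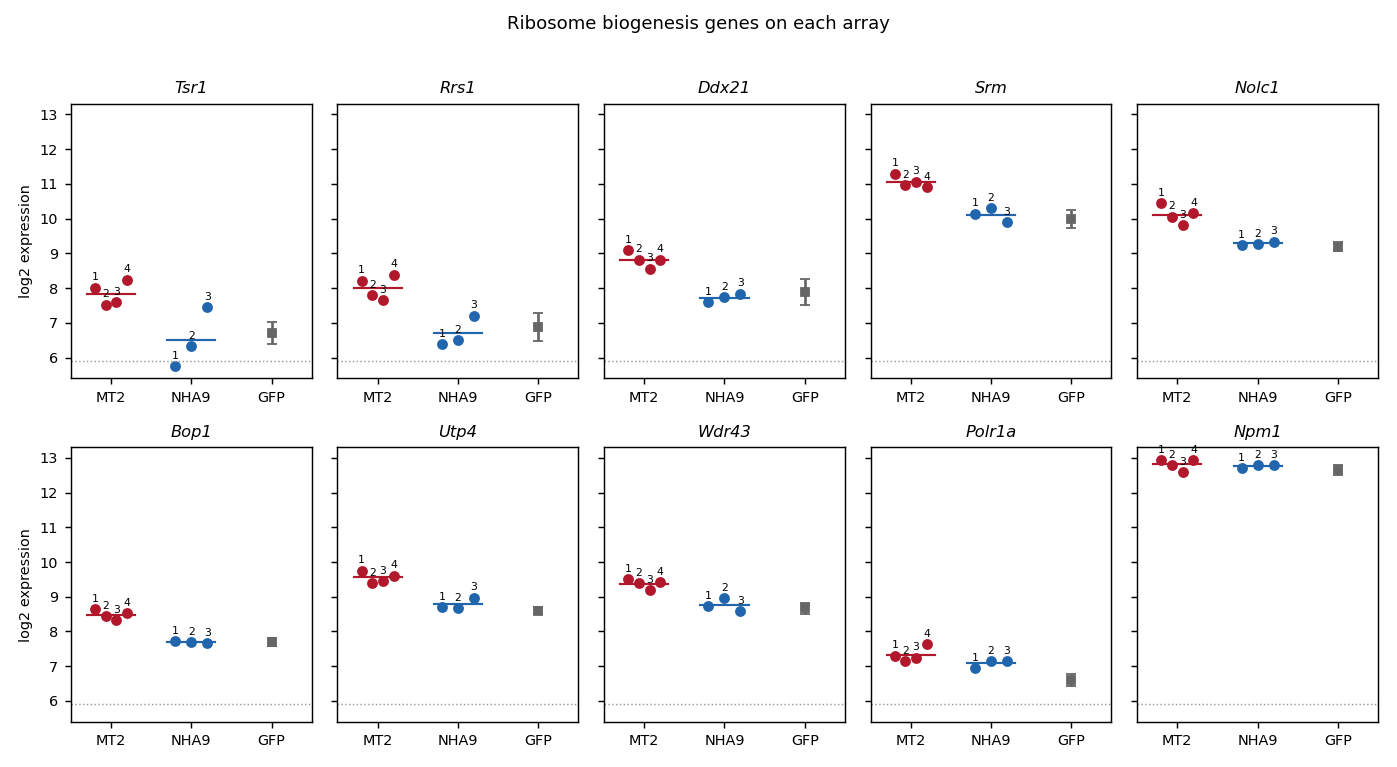
Log2 expression (vertical axis) of 10 ribosome biogenesis genes on each MT2 and NHA9 array (points, numbered by replicate, line at the mean) and the mean ± SD of the 3 GFP arrays (square), with the background level dotted. The first 8 genes were called and lie higher on all MT2 arrays, while Polr1a and Npm1 overlap.

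Promoter windows of the called members were read for the E-box bound by MYC and MAX, CACGTG on either strand, which is its own reverse complement. Windows run from 250 bases before to 50 bases after the start of a transcript in RefSeq, build GRCm38.p6. No list reached the share of calls set for printing promoters, so these were chosen after values were seen. The E-box was in 8 of 44 windows of the ribosome biogenesis list (18.2%) and in 2349 of 32851 windows of all genes (7.15%), and also in 6 of 32 windows of the secondary granule list (18.8%), whose called genes all fell. Among the 16 called ribosome biogenesis genes, 12 had a window and 4 of these held an E-box. They are shown 5′ to 3′ with the E-box in capitals to show where it lies, which in all 4 is just after the transcript start: Tsr1 (chr11:74897830-74898129, forward strand), Utp20 (chr10:88826765-88827064, reverse strand), Utp4 (chr8:106893390-106893689, forward strand) and Wdr43 (chr17:71615965-71616264, forward strand).
Tsr1: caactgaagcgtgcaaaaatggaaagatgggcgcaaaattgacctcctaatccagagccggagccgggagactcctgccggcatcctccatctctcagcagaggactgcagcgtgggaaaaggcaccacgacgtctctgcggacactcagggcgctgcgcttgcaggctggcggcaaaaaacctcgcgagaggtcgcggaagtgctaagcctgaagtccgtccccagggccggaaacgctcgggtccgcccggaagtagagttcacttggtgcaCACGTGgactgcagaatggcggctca
Utp20: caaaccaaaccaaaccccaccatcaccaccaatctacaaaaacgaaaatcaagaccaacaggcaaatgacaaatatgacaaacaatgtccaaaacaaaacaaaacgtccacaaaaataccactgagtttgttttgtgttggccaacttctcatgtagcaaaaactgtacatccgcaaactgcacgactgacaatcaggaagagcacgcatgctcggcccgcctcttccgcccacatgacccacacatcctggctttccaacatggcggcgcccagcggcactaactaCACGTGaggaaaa
Utp4: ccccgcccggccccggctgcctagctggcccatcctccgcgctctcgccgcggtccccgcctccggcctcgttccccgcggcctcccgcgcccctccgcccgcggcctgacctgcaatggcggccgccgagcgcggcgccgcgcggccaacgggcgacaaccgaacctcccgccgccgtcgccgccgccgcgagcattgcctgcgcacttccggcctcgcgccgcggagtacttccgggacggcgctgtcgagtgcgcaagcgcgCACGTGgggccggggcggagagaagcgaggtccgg
Wdr43: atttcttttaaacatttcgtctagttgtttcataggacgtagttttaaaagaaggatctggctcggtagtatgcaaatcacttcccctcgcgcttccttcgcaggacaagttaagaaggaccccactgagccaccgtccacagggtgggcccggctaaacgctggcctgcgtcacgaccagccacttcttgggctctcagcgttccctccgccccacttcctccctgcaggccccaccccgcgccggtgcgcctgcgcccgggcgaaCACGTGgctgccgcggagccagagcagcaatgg
With the start counted as base 1, the motif began at base 25 in Tsr1, 38 in Utp20, 16 in Utp4 and 18 in Wdr43. A match is a description of these letters and not a binding site.

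Other biosynthetic lists lay higher in MT2 with few or no calls. Of 17 genes of serine, one-carbon and nucleotide synthesis 2 rose (11.8%, against 3.38% of all genes). In this list 16 values were above 0 and the median was 0.44. Gart, an enzyme of purine synthesis, was at 9.91, 9.38, 9.41 and 9.77 in MT2 GMP and at 8.62, 8.71 and 8.93 in NHA9 GMP, a difference of 0.86 (SE 0.19, adjusted p = 0.0134). Adsl, adenylosuccinate lyase of the same pathway, was 0.59 (adjusted p = 0.0385). Gart lost its call without NHA9 1, and Adsl in 5 of the 7 fits without 1 array. Aminoacyl-tRNA synthetases (18 tested, median 0.33), mitochondrial ribosomal proteins (26, median 0.26) and genes of ATF4 and the unfolded protein response (27, median 0.31) had 0 calls in limma. At an unadjusted p under 0.05 they had 8, 7 and 7 higher and 0, 0 and 2 lower members. Over all 6986 genes tested, 843 were higher and 874 lower at that level. Proteins of the cytosolic ribosome had 0 of 30 called (2 higher at an unadjusted p under 0.05) and a median of −0.02. The methods' t-test called 0 in all 13 lists for which it was tabulated.

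Neutrophil maturation genes were lower in MT2 GMP. Of 26 tested members of the secondary granule and neutrophil maturation list, 12 fell (46.2%, against 4.65% of all genes) and 0 rose, 23 of 26 values were below 0 and the median was −0.95. The called differences ran from −2.26 to −0.61. Il1r2, a decoy receptor for interleukin 1, read 5.58, 5.95, 7.57 and 7.17 in MT2 GMP and 8.89, 8.75 and 8.83 in NHA9 GMP. The NHA9 arrays lay close together and above all MT2 arrays, which ran from under to well over the background level, and the difference was −2.26 (SE 0.43, adjusted p = 0.00746). S100a9, a calcium-binding protein of neutrophil cytosol, was at 10.09, 11.02, 11.52 and 12.07 in MT2 GMP and at 13.03, 12.57 and 12.66 in NHA9 GMP, 2.98-fold lower with an adjusted p of 0.0177.

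Granule proteins proper showed the same order. Lcn2, the iron-siderophore binding lipocalin of secondary granules, was at 10.47, 10.79, 11.33 and 10.89 in MT2 GMP and at 11.69, 11.79 and 11.68 in NHA9 GMP. The groups were apart, with a difference of −0.85 (SE 0.17, adjusted p = 0.00953). Camp, the cathelicidin precursor, was at 7.39, 7.86, 6.85 and 7.87 in MT2 GMP and at 9.30, 8.69 and 8.44 in NHA9 GMP, a difference of −1.32 (SE 0.37, adjusted p = 0.0441). Ltf, lactoferrin (−1.34), and Ngp, neutrophilic granule protein (−1.38), were lower on all MT2 arrays but missed the threshold (adjusted p = 0.0583 and 0.0528). Padi4, which citrullinates histones in neutrophils, was at 6.16, 6.39, 7.49 and 7.44 in MT2 GMP and at 8.43, 8.27 and 8.69 in NHA9 GMP, lower by 3.02-fold (adjusted p = 0.00662). The remaining calls were Pglyrp1 (−1.69), Ltb4r1, the leukotriene B4 receptor (−1.18), Cxcr2 (−1.03), Itgb2 (−0.96), Itgb2l (−0.94), Anxa1 (−0.89) and Ceacam1 (−0.61). Cxcr2 had an MT2 mean of 5.85, under the background level, and was at least 1.955-fold lower. Its call was lost in 6 of the 7 fits that left out 1 MT2 or NHA9 array. Among the MT2 arrays MT2 1 was the lowest for 9 of the 12. The summed level of the monocyte and macrophage list was also lower on every MT2 array, and its part in these decreases was not tested.

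Against GFP, Lcn2 and S100a9 were lower in MT2 GMP and showed no called difference in NHA9 GMP. Lcn2 was −1.11 (adjusted p = 0.00465) in MT2 GMP and −0.26 (adjusted p = 0.655) in NHA9 GMP. S100a9 was −1.83 (adjusted p = 0.0131) in MT2 GMP and −0.25 (adjusted p = 0.858) in NHA9 GMP. For Camp neither difference passed, with −0.78 (adjusted p = 0.251) in MT2 GMP and 0.54 (adjusted p = 0.675) in NHA9 GMP. Without NHA9 1, 5 of 25 tested members were called, without MT2 1 or NHA9 2 each 7 of 26, and within tag A 14 of 25. With the tag as a factor over 24 arrays 6 of 26 were called. The medians were −0.92 without NHA9 1, −1.02 within tag A and −1.31 with the tag as a factor. Csf3r, the receptor of granulocyte colony-stimulating factor, did not differ detectably (0.01, adjusted p = 0.991), and Slpi lay higher at 0.44 (adjusted p = 0.336).

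**Figure D4:**
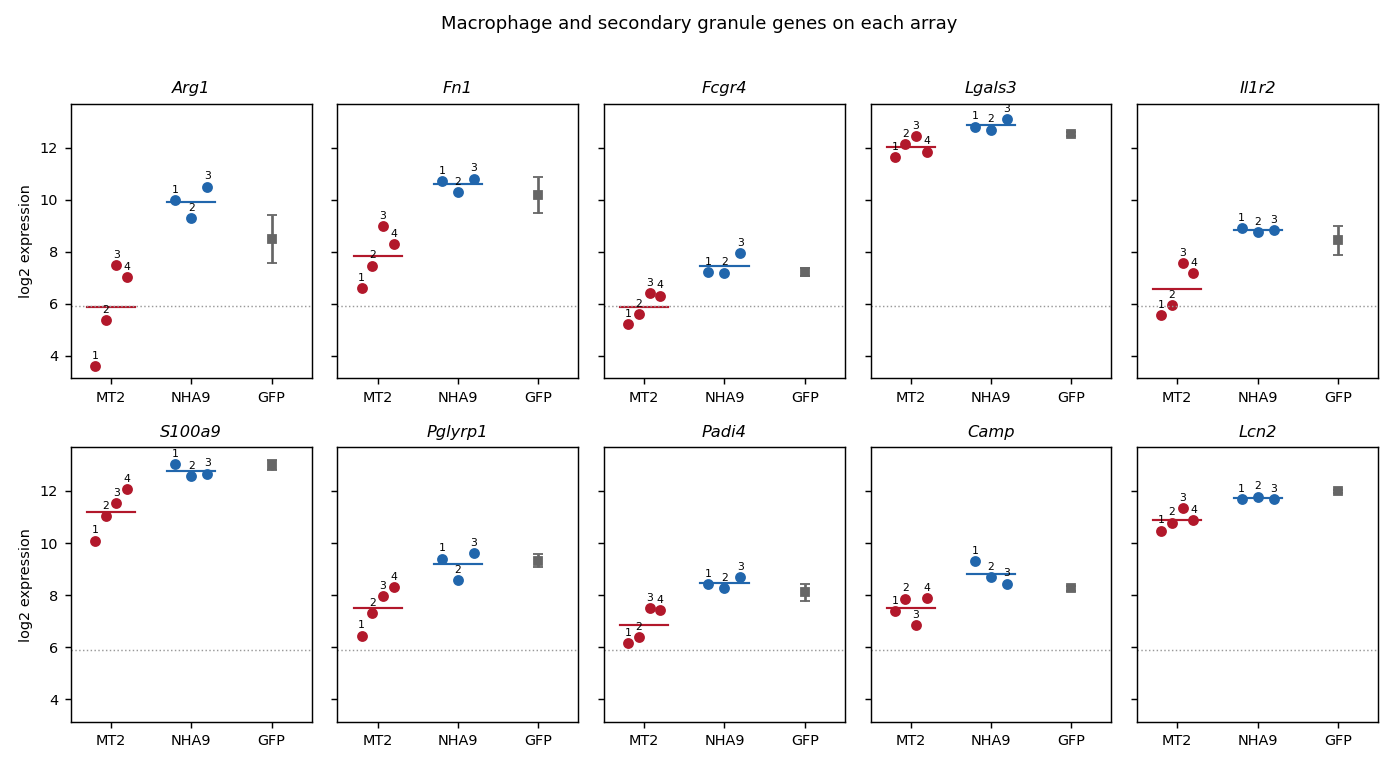
Log2 expression (vertical axis) of 4 macrophage genes (Arg1, Fn1, Fcgr4 and Lgals3) and 6 neutrophil maturation genes on each MT2 and NHA9 array (points, numbered by replicate, line at the mean) and the mean ± SD of the 3 GFP arrays (square), with the background level dotted. All 10 lie lower on every MT2 array, and MT2 1 is the lowest MT2 array for all but Camp.

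The letters TTGCNNAA, part of the site of C/EBP factors, which drive granule genes, were in 10 of 32 promoter windows of this list (31.2%), in 4 of 44 of the ribosome biogenesis list (9.09%) and in 3547 of 32851 of all genes (10.8%), read on both strands. Its letters cannot overlap those of the E-box, and overlaps with the other motifs were not removed. Of the 12 called genes 11 had a window, and 3 held the motif, in capitals here to show that its distance differs among them: Lcn2 (chr2:32387690-32387989, reverse strand), Anxa1 (chr19:20390622-20390921, reverse strand) and S100a9 (chr3:90695672-90695971, reverse strand).
Lcn2: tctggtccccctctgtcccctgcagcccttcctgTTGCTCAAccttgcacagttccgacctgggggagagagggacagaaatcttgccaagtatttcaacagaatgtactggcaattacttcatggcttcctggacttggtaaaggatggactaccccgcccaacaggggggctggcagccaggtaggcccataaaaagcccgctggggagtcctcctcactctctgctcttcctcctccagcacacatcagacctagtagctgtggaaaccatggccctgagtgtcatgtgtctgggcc
Anxa1: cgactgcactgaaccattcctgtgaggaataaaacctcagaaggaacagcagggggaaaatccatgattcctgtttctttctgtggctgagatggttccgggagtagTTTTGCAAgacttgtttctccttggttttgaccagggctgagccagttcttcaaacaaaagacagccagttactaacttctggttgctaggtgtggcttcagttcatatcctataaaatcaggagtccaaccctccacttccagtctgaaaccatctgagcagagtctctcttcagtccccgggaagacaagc
S100a9: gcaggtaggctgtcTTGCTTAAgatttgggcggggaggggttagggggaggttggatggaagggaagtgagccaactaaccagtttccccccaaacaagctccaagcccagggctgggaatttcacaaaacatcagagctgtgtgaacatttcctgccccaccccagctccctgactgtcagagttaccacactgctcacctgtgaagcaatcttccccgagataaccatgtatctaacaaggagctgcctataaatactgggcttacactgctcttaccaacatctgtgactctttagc
It began at base −216 from the start in Lcn2, −143 in Anxa1 and −236 in S100a9. For the other motifs read, GAGGAAG of PU.1 and other ETS factors was in 12 of 32 windows (37.5%), against 10 of 44 for ribosome biogenesis (22.7%) and 13.6% of all, and TGATNNAT, a HOX site with PBX or MEIS, was in 2 of 32 (6.25%), 1 of 44 (2.27%) and 8.85%.

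Primary granule genes had 0 calls, although they had 4 higher within tag A. Of 14 tested, 0 passed in either direction in limma (4 higher at an unadjusted p under 0.05), 12 values were above 0 and the median was 0.27. Mpo, myeloperoxidase, was at 13.30, 13.21, 12.99 and 13.19 in MT2 GMP and at 13.10, 12.78 and 12.93 in NHA9 GMP, overlapping at MT2 3 and NHA9 1. Ms4a3, a surface gene of GMP, was at 12.19, 12.02, 11.85 and 12.25 in MT2 GMP and at 11.53, 11.00 and 11.64 in NHA9 GMP. These did not overlap, but 0.69 did not pass (adjusted p = 0.0713). Ctsg, cathepsin G, was 0.37 (adjusted p = 0.0992). The median depended on the array chosen: it was 0.11 without NHA9 2.

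The single largest decrease, Arg1, belongs to the macrophage genes. Of 30 tested monocyte and macrophage genes 4 fell (13.3%, against 4.65% of all genes) and 0 rose, 27 of 30 values were below 0 and the median was −0.63. Summed on the linear scale, the list ran from 30880 to 43823 in MT2 GMP, 41842 to 43294 in GFP GMP and 51840 to 61442 in NHA9 GMP. Arg1, arginase 1 of alternatively activated macrophages, read 3.61, 5.38, 7.47 and 7.04 in MT2 GMP and 9.98, 9.29 and 10.50 in NHA9 GMP. MT2 1 and MT2 2 were under the background level and MT2 3 and MT2 4 over it, all NHA9 arrays were higher, and the difference was −4.04 (SE 0.71, adjusted p = 0.00474), at least 16.2-fold. GFP GMP lay between the groups at 8.49 ± 0.91 (SD, n = 3) and AE GMP above both at 12.04 ± 0.57 (SD, n = 4), while sorted GMP were at 3.31 ± 0.26 (SD, n = 4). Fn1, fibronectin, was at 6.62, 7.47, 8.99 and 8.30 in MT2 GMP and at 10.71, 10.28 and 10.81 in NHA9 GMP. Again MT2 1 was lowest and NHA9 GMP were apart, a difference of −2.76 (SE 0.43, adjusted p = 0.0023), or 6.76-fold lower in MT2.

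The other called macrophage genes were Fcgr4, an activating Fc receptor (at least 2.94-fold lower, adjusted p = 0.00725), and Lgals3, galectin 3, with a difference of −0.85 (SE 0.18, adjusted p = 0.0126). All 4 kept their calls with each array left out, though Lgals3 lost its call within tag A, and within tag A the list median was −0.33 with 5 lower and 1 higher. Without AE 1 in the fit, 8 were lower. Csf1r, the receptor of macrophage colony-stimulating factor, was lower on all MT2 arrays, a difference of −0.31 that did not pass (adjusted p = 0.166). Irf8, the monocyte regulator, was 0.26 (adjusted p = 0.633). Of 9 tested dendritic cell and MHC class II genes, 9 values were below 0 (median −0.72) and 2 fell (22.2%, against 4.65% of all genes). These were the protease Ctsh (−0.80) and H2-Ab1 (−0.72, but −0.32 over the mean of its 3 probe sets, adjusted p = 0.364). The linear sum of this list ran from 2100.5 to 2945 in MT2 GMP, 2329.8 to 2805.5 in GFP GMP and 3244.4 to 4405.7 in NHA9 GMP. The list had 0 calls without MT2 1, NHA9 1 or NHA9 3. It had 1 without MT2 2, MT2 3, MT2 4 or GFP 1, and 4 without AE 1.

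Among myeloid transcription factors, the inhibitors of differentiation Id2 and Id3 fell most. Of 22 tested, 5 fell (22.7%, against 4.65% of all genes: Id3, Id2, Jun, Mef2a and Cebpb), 2 rose (9.09%, against 3.38%: Cebpd and Etv6) and the median was −0.04. The 7 calls became 2 without MT2 1, 1 without NHA9 1 and 3 without MT2 4 or NHA9 2, and 4 with the tag as a factor over 24 arrays. Id2 was at 5.53, 6.66, 7.17 and 5.73 in MT2 GMP and at 8.05, 8.01 and 8.09 in NHA9 GMP. The NHA9 arrays differed by under 0.1 while the MT2 arrays ran over more than 1.5 units, and the difference was −1.78 (SE 0.37, adjusted p = 0.0106). Id3 was at 4.60, 5.67, 6.17 and 5.28 in MT2 GMP and at 7.42, 7.36 and 7.42 in NHA9 GMP, at least 2.82-fold lower with only MT2 3 over the background level (adjusted p = 0.0116). Each encodes a helix-loop-helix protein that cannot bind DNA.

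The C/EBP genes went in different directions. Cebpb was at 9.84, 10.15, 10.04 and 9.95 in MT2 GMP and at 10.58, 10.60 and 10.47 in NHA9 GMP, lower by 1.47-fold (adjusted p = 0.0152). Cebpd was at 9.90, 9.35, 9.07 and 9.70 in MT2 GMP and at 8.69, 8.85 and 8.29 in NHA9 GMP, higher by 1.86-fold (adjusted p = 0.0336), or 0.54 on the log2 scale over the mean of its 2 probe sets (adjusted p = 0.0484). Cebpd lost its call in 5 of 7 fits without 1 array and within tag A, Cebpb in 3 of 7. Cebpa, the founder of granulocyte commitment, overlapped at 9.25, 9.29, 9.42 and 9.43 in MT2 GMP and 9.27, 9.10 and 9.17 in NHA9 GMP (adjusted p = 0.679). Spi1, which encodes PU.1, overlapped as well (0.04, adjusted p = 0.951). Gfi1, a repressor that steers GMP to neutrophils, was 0.79 higher on non-overlapping arrays without passing (adjusted p = 0.0561). Jun, at 5.04, 6.37, 7.23 and 6.36 in MT2 GMP and 7.56, 7.80 and 7.66 in NHA9 GMP, lost its call in 6 of 7 fits without 1 array.

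Inflammatory signalling genes were lower in MT2 than in NHA9 GMP. Of 16 tested NF-kB and inflammatory genes 5 fell (31.2%, against 4.65% of all genes), 0 rose, 15 values were below 0 and the median was −0.52. Ccl3, a chemokine of macrophages and stem cells, was at 5.88, 5.58, 6.59 and 6.79 in MT2 GMP and at 7.53, 8.52 and 8.20 in NHA9 GMP. The groups were apart, with a difference of −1.87 (SE 0.35, adjusted p = 0.00679). MT2 minus GFP was 0.39 (adjusted p = 0.57) and NHA9 minus GFP was 2.26 (adjusted p = 0.0232). Nfkbia, the inhibitor that NF-kB itself induces, was at 11.06, 11.20, 11.49 and 11.24 in MT2 GMP and at 12.26, 12.25 and 12.30 in NHA9 GMP, and the NHA9 arrays lay within 0.1 of each other and about 1 unit above MT2. The difference was −1.02 (SE 0.16, adjusted p = 0.00252). Bcl3, a nuclear partner of NF-kB, was at 6.38, 6.50, 6.43 and 6.07 in MT2 GMP and at 7.40, 7.25 and 7.19 in NHA9 GMP. It was 1.91-fold lower in MT2 than in NHA9 GMP (adjusted p = 0.00229). Rela, the p65 subunit (−0.53), and Tlr2 (−0.83) were also lower. MT2 minus GFP was −0.06 (adjusted p = 0.85) for Bcl3 and −0.07 (adjusted p = 0.803) for Rela. NHA9 minus GFP was 0.88 (adjusted p = 0.0287) for Bcl3 and 0.46 (adjusted p = 0.263) for Rela. Nfkbia went the other way, with −0.74 (adjusted p = 0.019) for MT2 minus GFP and 0.28 (adjusted p = 0.608) for NHA9 minus GFP. The list had 3 calls without MT2 1 or NHA9 1 and 8 without AE 1.

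In the cytokine receptor and JAK-STAT list, which also holds kinases and feedback genes, 5 of 30 tested members fell (16.7%, against 4.65% of all genes) and 1 rose (3.33%, against 3.38%), with a median of −0.22. Its linear sum ran from 15080 to 16680 in MT2 GMP, 15888 to 16056 in GFP GMP and 18973 to 19657 in NHA9 GMP. Of 14 tested chemokines and chemokine receptors 3 fell (21.4%, against 4.65%: Ccl3, Ccr1 and Cxcr2) and 0 rose (median −0.52). Jak2, the kinase of many myeloid cytokine receptors, was at 8.65, 8.96, 9.00 and 9.02 in MT2 GMP and at 9.63, 9.61 and 9.79 in NHA9 GMP, a difference of −0.77 (SE 0.13, adjusted p = 0.00425) with no overlap. Csf2rb2, a beta chain of the mouse interleukin 3 receptor, was at 7.39, 7.76, 7.62 and 7.32 in MT2 GMP and at 8.29, 8.40 and 8.61 in NHA9 GMP. It was 1.88-fold lower in MT2 (adjusted p = 0.00807), while Csf2rb, the shared chain, did not pass (0.52, adjusted p = 0.44). These chains are near-identical copies, so their probe sets may share signal. Gadd45g (−1.65), Socs3 (−1.03) and Il4ra (−0.53) fell, and Spry2, a feedback inhibitor of receptor signalling, rose (0.72, lost in 6 of 7 fits without 1 array and, at 0.45, over the mean of its 2 probe sets). Ccr1, a receptor of Ccl3, was at 7.84, 8.03, 9.02 and 8.43 in MT2 GMP and at 9.39, 9.43 and 9.50 in NHA9 GMP, a difference of −1.11 (SE 0.22, adjusted p = 0.00875). The cytokine receptor list had 3 calls without MT2 1, MT2 4, NHA9 1, NHA9 2 or GFP 3, and the chemokine list had 6 without AE 1.

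Integrins and other adhesion genes were lower in MT2 where they were called. Itgb5, an integrin beta chain that pairs with alpha v, was at 8.77, 9.08, 9.11 and 8.43 in MT2 GMP and at 10.48, 10.38 and 10.30 in NHA9 GMP. All 4 of its probe sets were called lower, and the difference was −1.54 (SE 0.16, adjusted p = 3.87e-04). Itgb7 was at 6.82, 7.37, 8.35 and 7.55 in MT2 GMP and at 9.21, 9.21 and 9.85 in NHA9 GMP, 3.73-fold lower (adjusted p = 0.00385). With Itgb2, Adgre5 (−0.95) and the selectin ligand Selplg (−0.79), 5 of 19 tested genes fell (26.3%, against 4.65% of all genes), 0 rose and the median was −0.33, with 3 calls without NHA9 1.

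Glycolysis and hypoxia genes showed 5 decreases among 27 tested (18.5%, against 4.65% of all genes), 0 increases and a median of −0.43. Ndrg1, a hypoxia-induced gene, was at 8.35, 9.42, 9.54 and 9.02 in MT2 GMP and at 10.61, 10.25 and 10.84 in NHA9 GMP. MT2 1 was again lowest, and the difference was −1.48 (SE 0.26, adjusted p = 0.00422). Aldoc, an aldolase, was at 5.97, 6.26, 7.11 and 6.93 in MT2 GMP and at 8.41, 7.94 and 8.30 in NHA9 GMP, 3.14-fold lower (adjusted p = 0.00543). Slc2a1, the glucose transporter GLUT1 (−1.05), Pfkl, phosphofructokinase (−0.85), and Aldoa (−0.53) also fell. Ldha (0.24) and Pgk1 (−0.06) did not pass, and without MT2 1 the list median was −0.19 with 3 calls. There were also 3 calls without NHA9 2 and 2 without NHA9 1.

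Proliferation genes gave 0 calls in limma. Of 35 S phase genes 0 passed (median 0.04, 21 above 0), and of 35 G2 and mitosis genes 0 passed, although 31 of their values were below 0 (median −0.24). At an unadjusted p under 0.05, 1 S phase gene and 3 G2 and mitosis genes were lower, against 874 of all 6986 genes. Mki67, the Ki-67 antigen, overlapped at 10.48, 10.96, 10.62 and 10.81 in MT2 GMP and 11.01, 10.75 and 11.21 in NHA9 GMP. Of 10 cell cycle regulators and 23 cholesterol and fatty acid synthesis genes 0 passed (2 and 4 at an unadjusted p under 0.05). Of 15 p53 targets 1 rose (6.67%, against 3.38% of all genes), the nuclease Aen (0.73). Of 11 survival genes 2 fell (18.2%, against 4.65%), the antiapoptotic Mcl1 (−0.67) and the proapoptotic Bcl2l11 (−0.75). The call of Aen was lost in 4 of 7 fits without 1 array, and those of Mcl1 and Bcl2l11 in 2 each. For Mcl1, 2 of 6 probe sets had the opposite sign, and 3 were called lower. Over the mean of all their probe sets neither Mcl1 (−0.40, adjusted p = 0.0779) nor Bcl2l11 (−0.34, adjusted p = 0.162) passed.

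Interferon response genes had few calls. Of 28 tested genes 1 rose (Ifi47, 0.65; 3.57%, against 3.38% of all genes) and 2 fell (Irf1, −0.66, and Gbp2, −0.99; 7.14%, against 4.65%), with a median of 0.06, and 0 were called without MT2 1, NHA9 1 or NHA9 2. Rsad2, viperin, was at 6.44, 6.23, 8.69 and 8.94 in MT2 GMP and at 6.81, 8.38 and 6.04 in NHA9 GMP. MT2 3, MT2 4 and NHA9 2 were the 3 high arrays. Ifit1, mostly at background, had the same 3 arrays highest, at 3.86, 3.83, 6.16 and 5.91 in MT2 GMP and 3.89, 5.41 and 3.05 in NHA9 GMP. Their part in other results was not tested.

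Other large increases were spread over genes of varied function. Ncoa4, the autophagy receptor of ferritin, was at 11.69, 11.00, 11.31 and 11.84 in MT2 GMP and at 9.90, 9.83 and 10.18 in NHA9 GMP, a difference of 1.49 (SE 0.18, adjusted p = 7.27e-04). Stk26, a serine/threonine kinase, was at 11.24, 10.97, 11.15 and 11.47 in MT2 GMP and at 9.85, 9.75 and 10.20 in NHA9 GMP, a difference of 1.28 (SE 0.16, adjusted p = 7.53e-04). Both kept their calls whichever array was left out, as did Parp8 (1.46), Frat2, an inhibitor of GSK3 in Wnt signalling (1.39), and Crlf3 (1.34). Igf2bp3, an oncofetal RNA-binding protein, was at 7.50, 6.70, 6.19 and 6.76 in MT2 GMP and at 4.43, 5.32 and 6.01 in NHA9 GMP. It was at least 1.84-fold higher (adjusted p = 0.0221) and stood at 10.46 ± 0.33 in GMP of MT2 leukemias (SD, n = 3), but the call was lost without MT2 1, NHA9 1 or NHA9 2. Ankrd28 (1.50), Afp (1.50), Hmgn3 (1.41) and Mat2b (1.38) each lost their call in 1 to 4 of these 7 fits.

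Further large decreases were in genes of varied function. Myl10, a myosin light chain, was at 4.16, 4.66, 4.65 and 4.84 in MT2 GMP and at 7.38, 6.65 and 7.81 in NHA9 GMP, at least 2.59-fold lower (adjusted p = 0.00185). Cd28, the costimulatory receptor of T cells, was at 4.37, 4.38, 4.83 and 4.75 in MT2 GMP and at 6.45, 6.43 and 6.62 in NHA9 GMP. No MT2 array was over the background level and all 3 NHA9 arrays were, a difference of −1.92 (SE 0.25, adjusted p = 0.00109) and a value of 1.73 (adjusted p = 0.0194) for NHA9 minus GFP. Cd244a, a receptor of natural killer cells and progenitors, was at 4.31, 6.85, 8.06 and 7.21 in MT2 GMP and at 9.29, 9.23 and 9.28 in NHA9 GMP. MT2 1 lay more than 2 units under the other MT2 arrays, and the difference was −2.66 (SE 0.61, adjusted p = 0.0179), a call that was lost without NHA9 1 or NHA9 2. Cyp4f18, which inactivates leukotriene B4 in mouse neutrophils (−1.91), Plp2, a membrane proteolipid (−1.78), Apoc2, an apolipoprotein (−1.87), and Rnase4, a secreted ribonuclease (−1.77), kept their calls with each array left out.

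Of the genes associated with NUP98-HOXA9 or HOXA9 on the list used, 18 were tested, with a median of −0.30. Of these, 4 fell (22.2%, against 4.65% of all genes: Hoxa5, Cd28, Mycn and Dnajc10) and 2 rose (11.1%, against 3.38%: Sox4 and Lmo2). Like the other lists, it was drawn up with earlier results of these arrays known and is not independent evidence of a direction. Tgm2, transglutaminase 2, was at 8.65, 9.12, 10.28 and 9.66 in MT2 GMP and at 11.91, 11.27 and 11.74 in NHA9 GMP. It was lower on all MT2 arrays, and the difference of −2.21 just missed the threshold (adjusted p = 0.0527). Over all named genes that passed, 75 could be tested with each of the 7 arrays left out, and 40 of these passed every time.

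Markers of other blood cells were mostly at background. Of 16 B cell, 20 T and NK cell and 18 stroma and endothelium genes on the array, 13, 16 and 14 were never over the level of 60 on the 7 arrays. Of 23 erythroid and megakaryocyte genes, 14 were never over it, and 0 of 8 tested were called (1 higher and 1 lower at an unadjusted p under 0.05). Pf4, platelet factor 4, was at 8.31, 10.78, 7.78 and 6.75 in MT2 GMP and at 10.06, 9.27 and 9.84 in NHA9 GMP, with MT2 2 highest of all 7. Summed on the linear scale, this list ran from 2097 to 4000 in MT2 GMP and from 2150 to 3301 in NHA9 GMP, and its part in the other results was not tested. For the monocyte and macrophage list these sums ran from 30880 to 43823 in MT2 GMP, 41842 to 43294 in GFP GMP and 51840 to 61442 in NHA9 GMP. For mast cells, basophils and eosinophils they ran from 773.1 to 975.5 in MT2 GMP and from 663.7 to 1036 in NHA9 GMP.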

How the data were processed

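RNA of 24 mouse samples was hybridised to 1-colour Affymetrix 430A 2.0 arrays. The deposited values are log2 expression estimates. Per the submitters' processing notes the authors used MAS5 and GCRMA 2.4.1, and no normalization was added here. GCRMA corrects background by probe sequence and fits all arrays together, so a value depends on the other arrays. Of 22690 probe sets, 64 controls were left out, 20380 carried 1 gene symbol in the platform annotation, 691 several and 1555 none, and 20351 matched RefSeq.

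Groups came from sample titles. limma 3.58.1 in R 4.3.3 (lmFit, eBayes) took all 14 transduced arrays, each group having its own mean and all sharing 1 estimate of spread. The contrast was MT2 minus NHA9, tested where a linear value was over 60 on at least 2 arrays of either group, with Benjamini-Hochberg adjustment over all 11171 probe sets and a threshold of 0.05. The fit was tested on simulated data. A gene's values come from its probe set with the highest mean over 24 arrays. Where a group mean was under 60, the fold is the other mean over 60, written as at least. The number of arrays limits the precision.

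Named were, among called genes with no overlap, the 15 that rose most and the 15 that fell most, from each of 39 lists up to 4 called members by adjusted p, all fusion partner, Hoxa and Myc network genes, and other list members beside their list. Members and lists were chosen with earlier results of these data known. Same-numbered MT2 and NHA9 arrays did not deviate together (r of 0.17, 0.16 and −0.06 for numbers 1, 2 and 3), so the numbers were not used as pairs. The highest r between the groups was 0.45, for MT2 4 and NHA9 3, which both lie outside tag A. Next was 0.33, for MT2 2 and NHA9 1. Alternatives changed the samples fitted, filter, normalization, variance model, weights, tag, blocks, probe set rule and test, and left out each array. Present calls were not used here.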

Additional observations from a re-analysis of the deposited data

Results flagged for a closer look

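In 4 of 111 named genes, 1 of the 4 MT2 arrays lay far from the other 3, by Dixon's ratio of gap to range. Chance flags about 1 in 20 groups, so 4 flags are no more than that. Ankrd28, called higher in MT2, was at 10.45 on MT2 4 and between 9.53 and 9.68 on the other MT2 arrays. Jak2, called lower, was at 8.65 on MT2 1 and between 8.96 and 9.02 on the others. Kat6a, the gene of MOZ, was at 7.97 on MT2 4, against 7.64 to 7.68. Hoxb6, which lay under the background level throughout, was at 3.98 on MT2 4, against 4.29 to 4.34. Groups of 3 arrays, such as NHA9, were not looked at in this way.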

How the results depend on the processing

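The count of 840 probe sets (46.8% higher in MT2) was within 1.5 times in the fit to the 7 MT2 and NHA9 arrays alone, without the filter, with a stricter filter, after quantile normalization, with trend and robust eBayes, with the tag as a factor (60.1% higher) and with the file-name prefix as a block. The fit with a replicate block gave 565 (35% higher), although the numbers do not pair the arrays. Other alternatives moved it further: 1364 without the AE arrays in the fit, 4472 with array weights (61.8% higher), whose estimation stopped before it converged, 2037 within tag A (68.4% higher), and 3 with the methods' t-test after Benjamini-Hochberg (1 higher, 2 lower), with 2126 at an unadjusted p under 0.05. Leaving out 1 array gave 239 to 1377: 239 without NHA9 1, 329 without MT2 1, 432 without NHA9 2, 492 without MT2 4 and 1377 without AE 1. The share higher was 33.9%, 36.2%, 31.2% and 33.3% in the first 4 of these and 66.9% without NHA9 3. The cause was not tested. Of 76 named genes that passed, 41 passed whichever of the 14 arrays was left out where they could be tested, 65 passed within tag A and 65 with the replicate block, and 0 passed the methods' t-test. No value of the 91 named genes that could be tested reversed in a call. Where the MT2 and NHA9 arrays of a gene do not overlap, leaving out an array cannot reverse its sign. Many genes were named by that rule, so the lack of reversals is no added support. Of 1053 list medians recomputed, 1034 moved by less than 1 SD of the arrays. Fits that changed only the AE or GFP arrays or the variance model leave these medians as they were. Leaving out 1 array also shifts a group mean little, so this count does not measure stability. Calls in lists also moved by over 1.5 times in fits that left out no single array. Ribosome biogenesis had 27 without the AE arrays and 9 without the filter. Without the filter there were 3 among myeloid transcription factors and 3 in the cytokine receptor list. Without the AE arrays there were 7 monocyte and macrophage calls and 8 inflammatory ones. Within tag A there were 8 inflammatory and 8 adhesion calls and 6 in the Myc network, and with the file-name prefix as a block 9 glycolysis calls.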
